A study of Trichoderma reesei with 12 samples.

Results

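The comparison described here is constant light against constant darkness in mycelium of the filamentous fungus Trichoderma reesei that lacks tmk3. Its members are the 3 light libraries and the 3 dark libraries of the strain QM6a-delta-ku80-delta-tmk3, 6 of the 12 libraries of the series, chosen by strain label and fitted on their own. The other 6 libraries come from the strain QM6a-delta-ku80, called the parent below and labelled WT in the series, in the same light conditions. Both strains therefore lack ku80, a DNA repair gene removed so that other genes can be targeted more easily. All cultures grew for 96 h in minimal medium with cellulose as carbon source, and RNA was sequenced after removal of ribosomal RNA with a stranded kit. The labels name no strain with tmk3 put back, so the loss of tmk3 and other differences between the strains cannot be told apart. In such bulk RNA, fewer cells of a type and less RNA per cell cannot be told apart either.

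The gene tmk3 encodes a mitogen-activated protein kinase of the Hog1 type, a family known for its part in osmotic and other stress responses of fungi. In T. reesei, light is sensed through the photoreceptor proteins BLR1, BLR2 and ENV1, and light is known to alter growth, sporulation and the expression of genes for cellulose-degrading enzymes. In the related fungus Aspergillus nidulans, a kinase of the same type takes part in light signalling downstream of phytochrome. The comparison addresses which transcripts still respond to light when this kinase gene is missing.

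The count table lists 10879 gene models, of which 10876 carry a systematic identifier made of a series letter from A to G, a running number and W or C. None of the identifiers (0 of 10879) matched any of the 9116 entries in the RefSeq gene table for this species, and the count table does not pair them with gene names or functions. Results are therefore given by identifier, level and position in the letter series. The 3 remaining models carry the names mat1-1-1, mat1-1-2 and mat1-1-3, which are genes of the MAT1-1 mating type. T. reesei QM6a carries the opposite mating type, so these names serve as a check on background counts. The model mat1-1-1 had 1 count in each of the 3 light libraries, against 0 counts in each dark library, and the other two had 0 counts in all 6. All of these values lay at or below the level that 3 counts give in a library, 0.241 to 0.261 CPM (counts scaled to library size) in light and 0.183 to 0.230 CPM in darkness.

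The 6 libraries held between 11599300 and 12612172 counts in light, against 13010630 to 16489752 in darkness. The first principal component of log2 CPM carried 84.2% of the variance and placed all light libraries on one side and all dark libraries on the other. The light libraries were more alike than the dark ones, with a common biological coefficient of variation of 0.107 in light and 0.216 in darkness. Replicates always differed by more than counting noise (chi-square divided by its degrees of freedom 12.4 to 16.0 in light and 55.4 to 89.2 in darkness). Dark replicates 1 and 2 each stood apart in some models. Replicate 2 lay more than 5-fold below both other dark libraries in 30 tested models, against 3 and 0 models for dark replicates 1 and 3. Replicate 1 held over 5 times the CPM of both other dark libraries in 14 tested models, of which 13 fell at least 2-fold in light, while dark replicates 2 and 3 did so in 0 and 3 models. It also held 6.60% of the parent's dark level of 9 models that are near 0 in the deletion strain, against 0.495% and 1.59% in dark replicates 2 and 3. Those 9 models were chosen from these same libraries after their values were seen. Whether dark replicate 1 holds RNA of the parent was not tested. No identifier is paired with tmk3, so its deletion was not checked in these counts.

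Of the 8621 models tested, 4629 (53.7%) differed between light and darkness without tmk3, at a Benjamini-Hochberg adjusted p below 0.05 in edgeR's quasi-likelihood test. In light 2231 models rose (25.9%) and 2398 fell (27.8%). The numbers were close but the sizes were not. The median change was 0.62 on the log2 scale among the rises, with the middle 50% of models between 0.43 and 0.99, and 1.05 among the falls, with the middle 50% between 0.55 and 2.21. Only 541 models (6.28% of those tested) rose at least 2-fold, while 1246 (14.5%) fell at least 2-fold. Of the rises 57 reached 16-fold, and of the falls 181. The median fold change over all tested models was 0.01 on the log2 scale. The scaling of the libraries takes most models as unchanged, so a median near 0 is built in. A shift shared by all transcripts would not be seen. Whether replicates are separate cultures is not stated in the labels, so all p-values reflect the spread of these samples alone, which may be technical.

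Large falls were more frequent among low-abundance transcripts. Tested models were split by mean level into 4 groups of equal size. In the lowest group, up to 3.50 log2 CPM, 27.9% fell at least 2-fold and 9.74% rose at least 2-fold. In the highest group, from 6.76 log2 CPM upwards, 8.12% fell and 5.80% rose by that much. Calls of any size were nearly balanced in that highest group, with 618 rises and 607 falls among 2155 models, against 346 rises and 679 falls among 2156 in the lowest group.

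**Figure D1:**
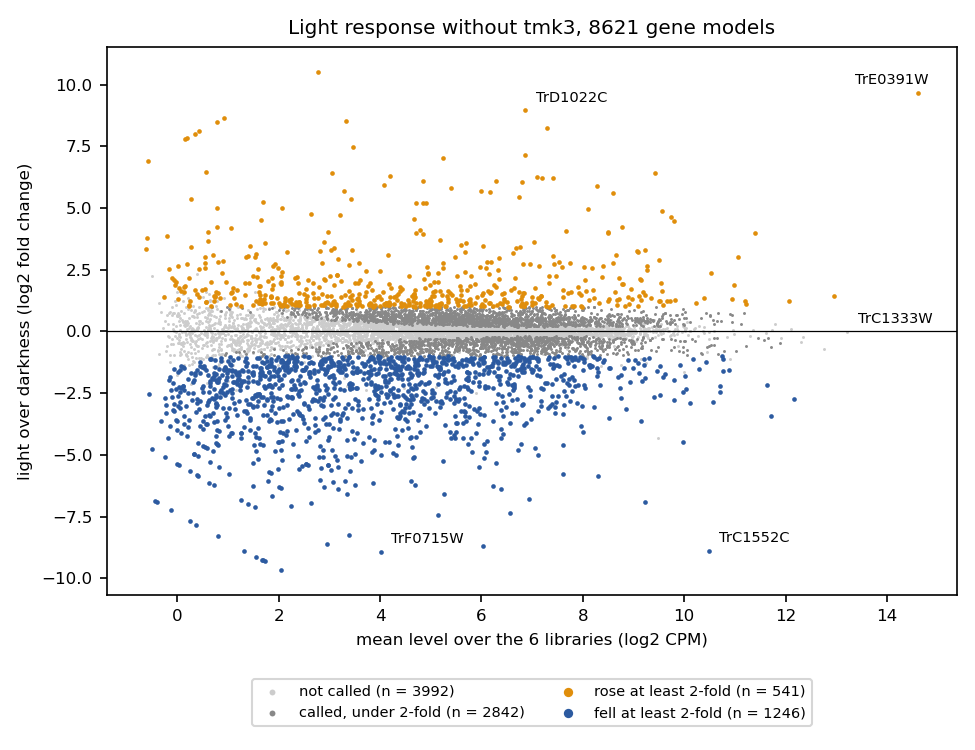
Light response of each tested gene model without tmk3: mean level over the 6 libraries in log2 CPM on the horizontal axis and light over darkness as a log2 fold change on the vertical axis. Large falls (blue, 1246 models) crowd the left side at low levels, rises of at least 2-fold (orange, 541 models) are fewer, and the models named in the text are marked.

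The most abundant transcript in light was far lower in darkness. TrE0391W had 41452, 57833 and 51702 CPM in the 3 light libraries, against 75.2, 14.2 and 95.2 CPM in the 3 dark libraries. The groups did not overlap, which the rule for naming the largest rises required. Dark replicate 2 lay well below the other dark libraries. The log2 fold change was 9.68 (SE 0.81, edgeR adjusted p = 6.36e-05), and it held between 9.21 and 10.14 when any single library was left out. In light this 1 model took 4.20%, 5.70% and 5.02% of all counts of a library. TrD1022C, the model with the next largest rise under the naming rule, had 188, 269 and 242 CPM in light, against 0.536, 0.273 and 0.550 CPM in darkness. Its dark level rested on 7, 4 and 9 counts, so its dark libraries were close to silent while all light libraries were well covered. Its log2 fold change was 8.98 (SE 0.24, edgeR adjusted p = 8.35e-07).

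The 2 largest falls among models with a mean of at least 3 log2 CPM and no overlap between groups differed in the spread of their replicates. TrF0715W had 2, 0 and 0 counts in the light libraries, against 430, 400 and 563 counts in the dark libraries. All dark libraries were thus alike, at 32.9, 27.3 and 34.4 CPM, while the light libraries held almost none of this transcript. The ratio of darkness over light by group totals was 563, with a 95% exact interval of 156 to 4657 that covers counting error only (edgeR log2 fold change -8.91, adjusted p = 6.62e-06). Both light counts lay in replicate 1, and the value of -11.75 fitted without it rests on the prior count. TrC1552C had 9.28, 8.53 and 0.261 CPM in light, against 7490, 707 and 356 CPM in darkness. Dark replicate 1 stood far above both other dark libraries, and light replicate 3 was far below the other light libraries. The log2 fold change of TrC1552C was -8.88 (SE 1.63, edgeR adjusted p = 0.00274), or -6.45 (edgeR adjusted p = 0.00159) without dark replicate 1. The fall was therefore called without that library too, at a smaller size.

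The transcript with the highest mean level in darkness, TrC1333W, was not called, although TrC0633C was the highest in dark replicate 3. It had 9086, 9874 and 9624 CPM in light, against 9925, 9667 and 9025 CPM in darkness, and the ranges overlapped. Its log2 fold change was -0.00 (SE 0.10, edgeR adjusted p = 0.990).

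**Figure D2:**
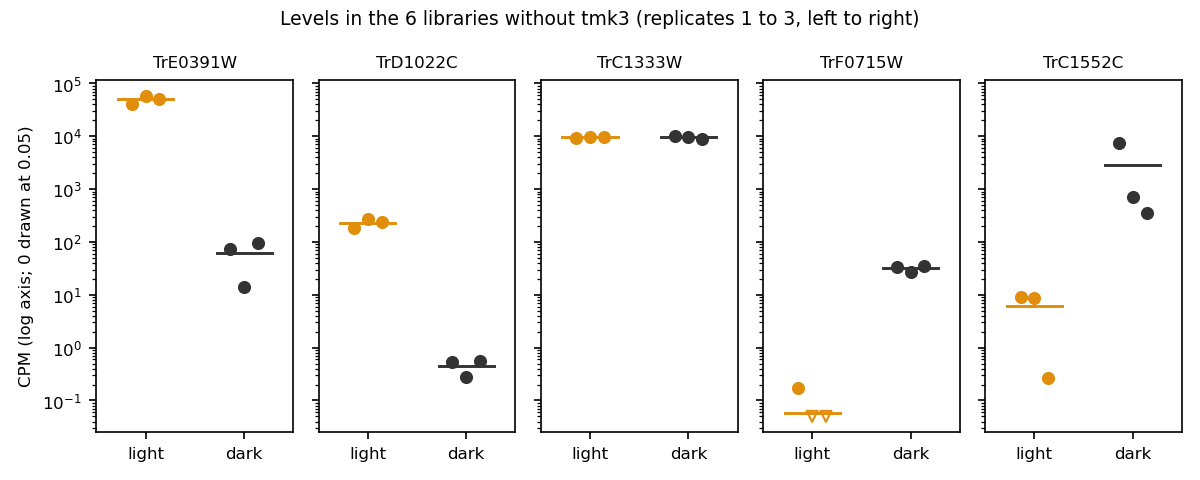
CPM on a log axis for the models named by rule, with the 3 light libraries (orange) left of the 3 dark libraries (black) in each panel, replicates 1 to 3 from left to right, bars at the arithmetic mean and open triangles for libraries with 0 counts. TrE0391W and TrD1022C sit far higher in light, TrF0715W and TrC1552C far lower, and TrC1333W is level in both.

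The 10 most abundant models of each library held 9.58%, 11.0% and 10.8% of its counts in light, against 6.42%, 6.25% and 6.63% in darkness. The 100 most abundant held 24.9%, 26.3% and 26.3% in light, against 23.4%, 22.9% and 24.1% in darkness. Light libraries were higher than all dark libraries in both measures (means of 10.4% ± 0.753 against 6.43% ± 0.190 for the top 10, SD, n = 3 each). The two-sided exact permutation test gave p = 0.1 for each, which is the smallest value 3 against 3 allows. The first model of each library accounted for nearly all of the difference in the top 10. It held 4.97% ± 0.751 of counts in light (TrE0391W) and 1.08% ± 0.140 in darkness (SD, n = 3 each). That gap of 3.89 percentage points was larger than the whole difference of 2.36 in the top 100. Ranks 2 to 10 held 5.47% ± 0.247 in light and 5.36% ± 0.0896 in darkness, and ranks 2 to 100 held 20.9% ± 0.378 in light and 22.4% ± 0.499 in darkness. By construction, the models that rose at least 2-fold took more of the counts in light. They held 15.5%, 17.9% and 17.2% of counts in light, against 3.67%, 3.42% and 3.39% in darkness. TrE0391W accounted for part of this, and the other risen models still held 11.3% to 12.2% in light, against 3.38% to 3.67% in darkness. The 1246 models that fell at least 2-fold held 4.44%, 3.44% and 3.56% in light, against 15.9%, 15.2% and 15.4% in darkness.

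Some models were seen in 1 light condition alone. These models were chosen after their values were seen, as those with 0 counts in all 3 libraries of a condition and at least 10 in each library of the other. The search covered all 10879 models listed, also those that were not tested. In 8 models all dark libraries were at 0, with 40 to 487 counts over the light group, at least 16.5-fold to at least 200.7-fold higher in light against a floor of 3 counts over the dark group. The highest of them, TrA0032W, had 229, 113 and 145 counts in the light libraries, against 0 in every dark library. This model also had 0 counts in all light and all dark libraries of the parent, so among the 12 libraries it was seen in these 3 alone. In 14 models all light libraries were at 0, with 48 to 343 counts over the dark group, at least 12.9-fold to at least 92.5-fold lower in light. Only some of these models passed the filter on low counts in the parent, 6 of the 8 and 9 of the 14, and mostly through the condition in which they were high. Their direction in the parent is therefore not read.

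The running numbers were taken as the order of genes along each letter series, which is assumed from how the identifiers are built, since the table has no coordinates. Models that changed at least 2-fold lay next to others that changed the same way. Of 919 fallen models whose next number was also tested, 34.5% were followed by another fall of at least 2-fold, where 12.4% of all models in that second position fell so. Of 444 risen models, 23.0% were followed by another rise, where 6.18% of all second models rose. Unbroken runs of tested models changed at least 2-fold in 1 direction reached 6 models among rises and 10 among falls. The 3 longest runs per direction are described, with ties settled by the larger median change: 2 of the 3 runs of 5 rises and 1 of the 3 runs of 7 falls are shown. The runs were chosen by this same contrast, so their values in the deletion strain are a description, while the parent libraries took no part in choosing them. Over all models tested in the parent 15.3% rose and 19.3% fell, and the interaction was higher without tmk3 in 6.39% of models and lower in 7.71%.

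The longest run of rises was near the start of series E, from TrE0011C to TrE0016W, and all 6 consecutive models rose, by 5.69 to 7.49 on the log2 scale (largest edgeR adjusted p = 0.000369). Their summed level was 281, 173 and 376 CPM in light, against 6.97, 4.30 and 2.14 CPM in darkness. Every light library stood far above every dark library. TrE0011C, the first of them and the most abundant in light, had 121, 80.7 and 174 CPM in light, against 4.06, 2.32 and 1.04 CPM in darkness. TrE0016W, the last of them, had 27.8, 6.92 and 23.4 CPM in light, against 0.689, 0.205 and 0.244 CPM in darkness. The borders on both sides were sharp: the tested models before and after the run fell, with log2 fold changes of -1.91 and -4.30 (edgeR adjusted p = 0.00543 and 0.000374). In the parent none of the 6 rose. The sum there was 21.8, 48.0 and 32.5 CPM in light, against 50.6, 41.1 and 90.1 CPM in darkness, 5 models were not called, and TrE0016W fell by 3.53 (edgeR adjusted p = 0.0013). The parent sums thus lay between the light and the dark sums without tmk3, although CPM were scaled within each strain. The difference between the strains in the light response was called for all 6 models in the fit to 12 libraries (edgeR interaction, log2 6.17 to 9.22), which draws on the libraries that chose the run. All 6 rises and all 6 interactions were also called under each alternative scaling, filter and test and without any single library.

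The other 2 runs of rises also rose in the parent in part. From TrC1159C to TrC1163C, 5 consecutive models rose by 3.97 to 4.90 on the log2 scale. Their summed level was 6306, 9173 and 9312 CPM in light, against 507, 475 and 364 CPM in darkness. TrC1160W, singled out after its values were seen, made up 61.1% of the light sum, with 3823, 5641 and 5696 CPM in light, against 383, 332 and 251 CPM in darkness. All 5 rose in the parent as well, by 2.01 to 4.78 on the log2 scale, and 3 of the 5 had a larger light response without tmk3 by the interaction test. From TrE0643W to TrE0647C, 5 consecutive models rose by 1.14 to 5.44, with a sum of 544, 537 and 550 CPM in light, against 104, 88.9 and 89.4 CPM in darkness. Both groups were narrow here, and 2 of the 5 rose in the parent. In that stretch TrE0643W had 195, 224 and 209 CPM in light, against 8.43, 3.34 and 2.93 CPM in darkness. In the parent it had 150, 134 and 158 CPM in light, against 36.1, 142 and 17.7 CPM in darkness. Parent dark replicate 2 thus lay at the level of the parent light libraries for this model, and the parent change was not called (log2 1.18, edgeR adjusted p = 0.234).

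Runs of falls were longer, and falls of at least 2-fold were also more frequent than rises (14.5% against 6.28% of tested models). Most models of the falling runs that were tested in the parent fell there too. From TrD1371C to TrD1387C, all 10 tested models among 17 numbers fell, with log2 fold changes of -5.08 to -1.07. The 7 untested numbers all lay between TrD1371C and TrD1379C, so only the models from TrD1379C onwards were direct neighbours. The sum was 46.6, 45.5 and 44.8 CPM in light, against 138, 159 and 241 CPM in darkness. Light libraries were nearly identical and dark replicate 3 was the highest. All 9 of these models that were tested in the parent fell there too. From TrC1536W to TrC1547W, all 8 tested models among 12 numbers fell, with log2 fold changes of -8.90 to -1.01. The far end of that range is TrC1547W, with 0 counts in light, so its fitted value rests on the prior count. The sum was 77.8, 72.6 and 68.5 CPM in light, against 402, 454 and 350 CPM in darkness, and 7 of the 8 fell in the parent. From TrD0030C to TrD0037W, all 7 tested models among 8 numbers fell, with a sum of 24.7, 18.0 and 18.7 CPM in light, against 2921, 474 and 461 CPM in darkness. Dark replicate 1 again stood far above the other dark libraries. TrD0036W, singled out after its values were seen, made up 97.2%, 84.0% and 76.3% of the sum in dark replicates 1, 2 and 3. Its log2 fold change was -6.92 (edgeR adjusted p = 0.000751), or -5.25 (edgeR adjusted p = 4.87e-06) without dark replicate 1. Without dark replicate 1, 6 of the 7 models were still called at least 2-fold lower, and 4 of the 6 tested in the parent fell there.

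**Figure D3:**
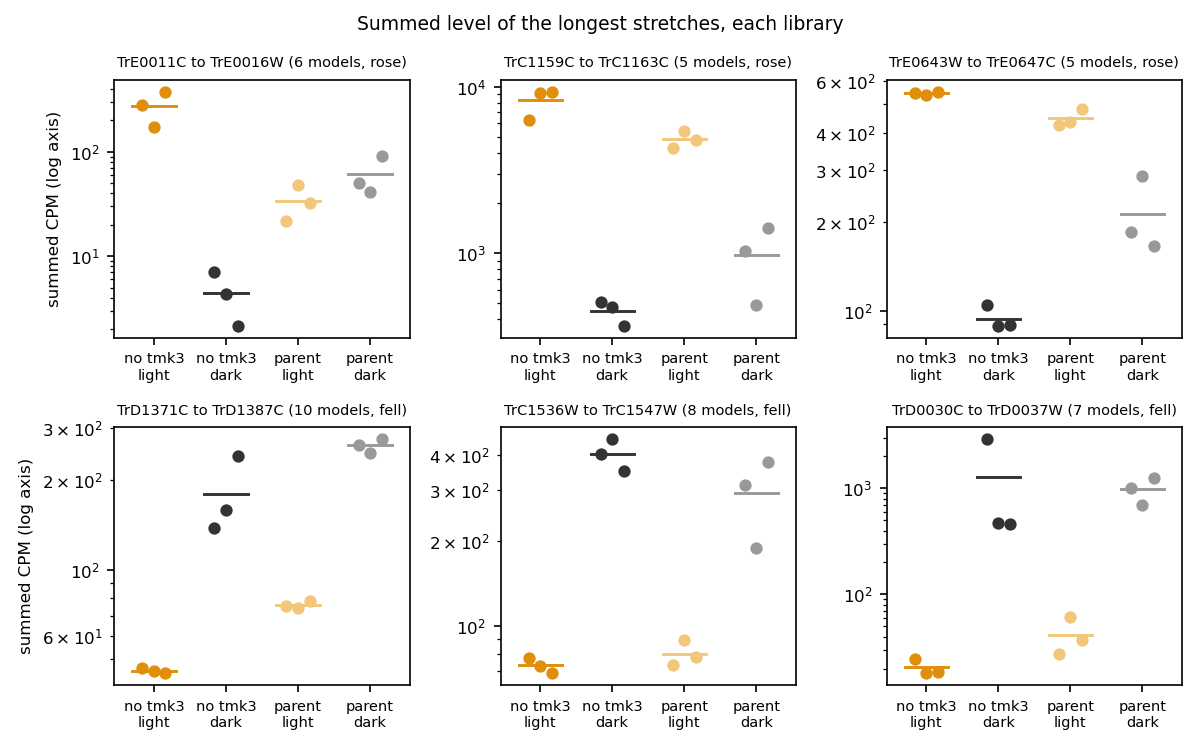
Summed CPM of the tested models of each stretch, log axis with its own range in each panel, in the 3 light and 3 dark libraries without tmk3 and then the 3 light and 3 dark libraries of the parent, with bars at the mean. TrE0011C to TrE0016W is high in light and low in darkness without tmk3, with the parent libraries in between, while the falling stretches show the same direction in both strains.

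Falls were frequent at the ends of the letter series. Within 50 numbers of either end of a series, 158 of 402 tested models (39.3%) fell at least 2-fold, against 1088 of 8219 elsewhere (13.2%) and 14.5% of all tested. Rises of at least 2-fold were 8.46% at the ends, against 6.17% elsewhere. The models at the ends were also less abundant, with a median mean level of 3.34 log2 CPM against 5.34 elsewhere. Within the lowest of the 4 level groups, 50.2% of 209 end models fell, against 25.5% of 1947 elsewhere. In the second group 33.0% of 94 fell, against 12.3% elsewhere, and in the third 20.7% of 58, against 8.30%. In the highest group 10 of 41 end models (24.4%) fell, against 7.81% elsewhere. The share was thus higher at the ends at each level.

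The ends were not alike. The highest share of falls was in the last 50 numbers of series C, where 18 of 26 tested models fell at least 2-fold and 0 rose. The first 50 numbers of series E had 19 falls and 6 rises among 32 tested models, the 6 rises being the run described above. The first 50 numbers of series D had 16 falls among 30, and the first 50 of series G 14 among 28. The last 50 numbers of series G and F were close to the background of 14.5%, with 4 falls among 25 and 6 among 33. In the last 50 of series D, 10 of 20 fell. These include TrD1439W and TrD1440W, named after their values were seen, which are among the 9 models near 0 in the deletion strain, whose summed counts were 783 in dark replicate 1, against 66 and 236 in dark replicates 2 and 3 and 5 to 42 in light. Without dark replicate 1 both were still called lower, at log2 fold changes of -2.48 and -2.73 (edgeR adjusted p = 0.0304 and 0.0406), against -3.61 and -3.79 with it. The call of TrD1440W was lost without light replicate 2 or 3 (edgeR adjusted p = 0.0525 and 0.0538). Of the same 9 models, TrD1420C, TrD1424C, TrD1427W and TrD1438C also lie in the last 50 numbers of series D. They did not pass the filter and were not tested. Away from the ends, numbers 351 to 400 of series F had 14 falls among 24 tested models and numbers 101 to 150 of series G 19 among 39. In the parent, fitted on its own 6 libraries, 30.9% of end models fell at least 2-fold, against 12.9% elsewhere. Rises of at least 2-fold in the parent were 13.6% at the ends, against 8.47% elsewhere.

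**Figure D4:**
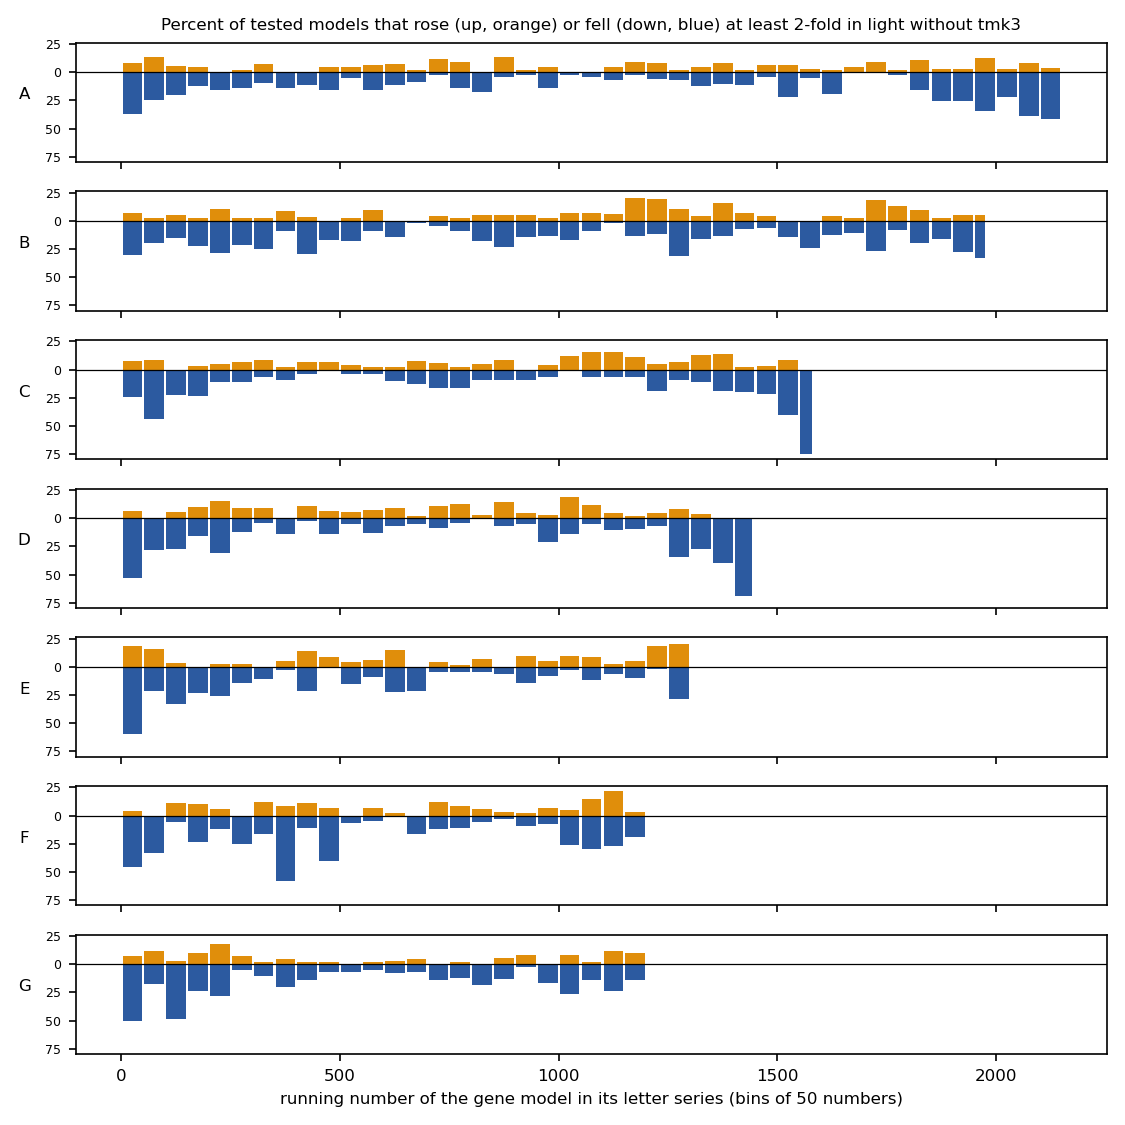
Percent of tested models in bins of 50 running numbers that rose (orange, upward) or fell (blue, downward) at least 2-fold in light without tmk3, with 1 row per letter series and only bins with at least 10 tested models drawn. Long blue bars stand at the start of series D, E and G and at the end of series C and D, and a separate peak of falls lies at numbers 351 to 400 of series F.

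The response without tmk3 was set beside that of the parent, fitted in the same way to its own 6 libraries, so that no library is shared. In the parent 1305 models rose (15.3%) and 1652 fell (19.3%) of 8548 tested, 2957 (34.6%) in all. That number depended on single libraries: it was 1824 without light replicate 1 and 1731 without light replicate 3 of the parent, and 3816 without dark replicate 2. The order of the strains also turned with the fit: with 1 estimate of the spread over all 12 libraries, 3485 models were called without tmk3 and 4272 in the parent. The common coefficient of variation was 0.172 without tmk3 and 0.312 in the parent. At 2-fold or more the parent had 2041 calls (23.9%), of which 756 were rises (8.84%) and 1285 falls (15.0%), against 1787 (20.7%) without tmk3. Across the 8247 models tested in both, the log2 fold changes had a Pearson's r of 0.72 and a Spearman's rho of 0.63. This is a correlation across genes, which are not independent replicates.

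Most large responses without tmk3 were called in the same direction in the parent. Of the 541 models that rose at least 2-fold, 509 were tested in the parent, where 317 (62.3%) rose, 180 were not called and 12 fell, with a median parent change of 1.21 on the log2 scale. Of the 1246 that fell at least 2-fold, 1144 were tested in the parent, where 788 (68.9%) fell, 323 were not called and 33 rose, with a median of -1.97. The parent median over all models was -0.03. Whether a response differed between the strains was tested by the interaction over all 12 libraries, which was called for 1269 of 8998 models (14.1%), with a light response higher without tmk3 in 575 (6.39%) and lower in 694 (7.71%). That number was 842 without light replicate 2 of the deletion strain and 1958 without dark replicate 2 of the parent. Among the models with a rise of at least 2-fold without tmk3, 174 (32.2%) had such a difference, with the light response higher than in the parent in 111 and lower in 63. Among the falls of at least 2-fold, 331 (26.6%) had it, with a deeper fall or an opposite direction in 223 and a shallower fall in 108. Those models were chosen with libraries that the interaction also uses.

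Of the 8247 models tested in both strains, 115 were called in opposite directions, 37 of them at least 2-fold in both. All 115 had an interaction call, but that test uses the same libraries that chose them, so it adds no separate evidence. In 38 of them light raised the level without tmk3 and lowered it in the parent, and in 77 it lowered the level without tmk3 and raised it in the parent. Where both strains were called in the same direction and the interaction was called, the response was smaller without tmk3 in 289 models and larger in 81. These are part of 1222 models with an interaction call that were sorted in this way. Entry into this split needed a call in both strains, and the parent libraries spread more (common coefficient of variation 0.312 against 0.172). A parent call thus needed a larger change, so the split does not show which strain responded more. Of the 1222, 222 had a 2-fold call in the parent and none without tmk3. In 202 there was a 2-fold call without tmk3 and none in the parent, and 313 belonged to none of these groups. For TrE0391W the light response was smaller without tmk3 by 3.06 on the log2 scale (interaction of -3.06, edgeR adjusted p = 0.035). Its parent means were 62040.5 CPM in light and 9.06 CPM in darkness, against 50329.1 and 61.5 CPM without tmk3. The ranges of the strains overlapped in light but not in darkness, both by a narrow margin, with CPM scaled within each strain. In light, replicate 2 without tmk3 had 57833 CPM, against 57517 CPM in parent replicate 2. In darkness, replicate 2 without tmk3 had 14.2 CPM, against 13.2 CPM in parent replicate 3. This interaction call was lost when any of 9 of the 12 libraries was left out (edgeR adjusted p between 0.00509 and 0.0881 over all 12). For TrD1022C the interaction was -2.17 (edgeR adjusted p = 0.016), and it was lost without dark replicate 3 of the deletion strain (-1.99, edgeR adjusted p = 0.0535). The parent dark level of TrD1022C rested on 1, 2 and 4 counts. For TrF0715W and TrC1552C it was not called (edgeR adjusted p = 0.789 and 0.357), which does not show that the strains responded alike.

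**Figure D5:**
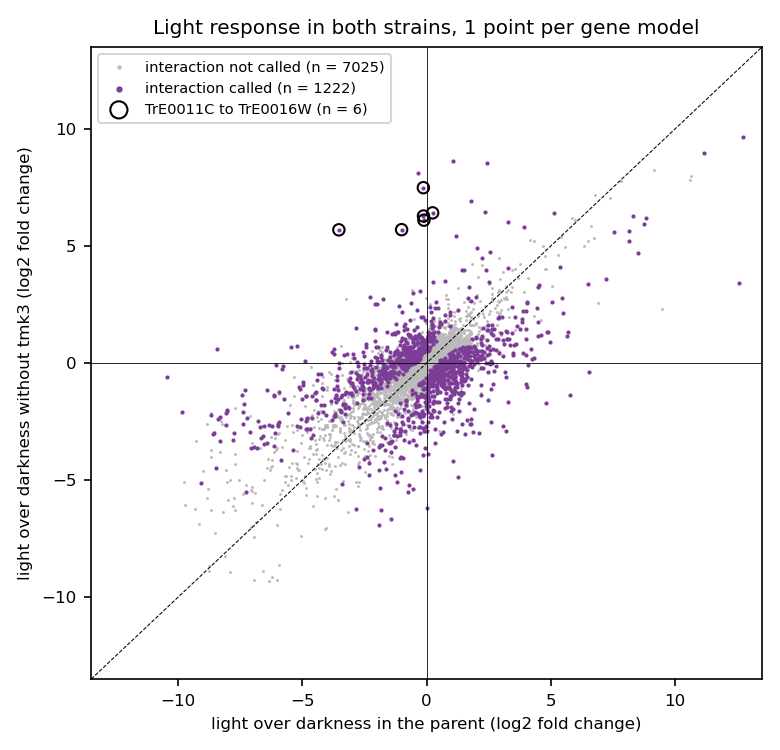
Light over darkness as a log2 fold change in the parent (horizontal axis) and without tmk3 (vertical axis) for the 8247 models tested in both, with models called by the interaction test in purple, a dashed line where both are equal and the 6 models TrE0011C to TrE0016W circled. Most models lie along the dashed line, and the circled models sit high on the vertical axis at or left of 0 on the horizontal axis apart from 1 just right of it.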

How the data were processed

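The authors deposited raw counts, as whole numbers of reads for each gene model. Per the submitters' processing notes, HISAT2 2.2.1 was among the tools. For counting, the sources used here do not give version, strand setting or filters, so counts of overlapping, antisense or near-identical models are uncertain. Columns were matched to samples through their labels, with 0 columns left unused. The tests ran in edgeR 4.0.16 under R 4.3.3 (filterByExpr, TMM scaling, quasi-likelihood F test) on the 6 libraries without tmk3, on the 6 parent libraries, and on all 12 for the interaction. A call needed an adjusted p (Benjamini-Hochberg) under 0.05. CPM values use TMM-scaled library sizes within each 6-library fit. Standard errors are approximate, from the fold change and its F value. Replicate numbers were not taken to pair the libraries, since the labels do not say whether they do (see the closing section). Named models are the 2 largest rises and 2 largest falls among called models whose groups did not overlap and whose mean log2 CPM reached 3, the highest model of each condition, the mating-type names, and the ends of the 3 longest runs per direction. Analyses of neighbours after each model, bins, level groups within ends, models seen in 1 condition and opposite calls were added after seeing the data. Members and lists were chosen with earlier results of these data known. DESeq2 1.42.0, other scalings, filters, a replicate block, single libraries left out and a fit to all 12 libraries were alternatives. The fitting procedure was tested on simulated data with few changed models and as many rises as falls. That setting differs from these data, so it does not test the scaling used here. A library's count of 0 allows up to the level of 3 counts; intervals and floors cover counting error only. No sequences are shown because none were matched to these identifiers. Figures were drawn in Python 3.11.15 with matplotlib 3.10.9, and SciPy 1.17.1 gave the exact tests.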

Additional observations from a re-analysis of the deposited data

Results flagged for a closer look

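The light response differed between the strains, by the interaction test, for 1269 models, among them TrE0391W (-3.06 on the log2 scale) and TrD1022C (-2.17), both with a smaller response without tmk3. Within the stretches, the interaction was called for 6 of 6 models from TrE0011C to TrE0016W, 3 of 5 from TrC1159C to TrC1163C and 3 of 5 from TrE0643W to TrE0647C, each with a light response higher without tmk3. It was called for 1 of 10 models from TrD1371C to TrD1387C, 2 of 8 from TrC1536W to TrC1547W and 1 of 7 from TrD0030C to TrD0037W, each with a lower light response without tmk3. The share of all models with an interaction call was 14.1%.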

How the results depend on the processing

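The number of models changed by light without tmk3 was 4606 with DESeq2-type size factors, 4492 with total counts alone, 4557 with DESeq2, 4712 without a filter, 4638 with a stricter filter, 3485 in the fit to all 12 libraries, and 3637 to 4680 with single libraries left out, against 4629. Of the 4629, 4441 were also called in the same direction by DESeq2 and 3360 in the 12-library fit. The numbers of rises, falls, changes of at least 2-fold, calls at series ends, calls within stretches and named calls stayed within 1.5 times under these alternatives. The number changed in the parent ranged from 1731 to 3816, and that of the interaction from 842 to 1958, with single libraries left out; the cause was not tested. In the fit to all 12 libraries 4272 models were called in the parent, more than the 3485 without tmk3. The interaction of TrE0391W was also lost with the replicate block (-3.03, edgeR adjusted p = 0.0608). With the replicate number as a block 4348 models were called without tmk3, 4245 of them as in the fit without it. Deviations of same-numbered light and dark libraries correlated at -0.00, 0.03 and 0.12, so the numbers were not taken to pair the libraries, and not every library correlated best with its own number. Depth limits models below about 0.26 CPM in light, where 3 counts in the shallowest library lie.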

Other observations

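Neighbouring models on opposite strands differed in how alike their light responses were, according to their orientation, reading W and C as the 2 strands. Among 2200 pairs of consecutive numbers in which a C model was followed by a W model, an arrangement in which the starts of both lie next to each other, Pearson's r of the log2 fold changes without tmk3 was 0.53 and Spearman's rho 0.38. Among 2903 pairs on the same strand r was 0.29 and rho 0.23, and among 2168 pairs in which a W model was followed by a C model r was 0.12 and rho 0.09. Both members changed at least 2-fold in the same direction in 6.95% of the first kind, 6.48% of the second and 3.60% of the third. In the parent libraries, which share none with these, r was 0.43, 0.19 and 0.08 in the same order, over 2014, 2654 and 2040 pairs. These are descriptions across genes from the same libraries, which are not independent replicates, and the strand setting of the counting is not given in the sources used here.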
